A study of Mus musculus with 8 samples.

Results

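The comparison described here set mouse embryonic stem cells (ESCs) that had received 4-hydroxytamoxifen (4OHT) and then the MEK inhibitor PD0325901 against untreated ESCs, to see which genes stayed changed and which passed beyond the untreated level after the inhibitor. Its members were the 2 arrays titled 8h-2h and the 2 titled 0h, which are 4 of the 8 arrays of the series. The treated cells of this comparison had 250 nM 4OHT for 8 h and then 1 µM PD0325901 for 2 h, and the untreated cells had neither. All cells, the untreated ones too, grew with leukaemia inhibitory factor (LIF) and with 250 nM PD173074, an inhibitor of fibroblast growth factor (FGF) receptors. Beside these groups stand 2 arrays of cells with 4OHT for 8 h and 2 arrays of cells with 4OHT for 10 h, the second matched to the inhibitor group in total time. The labels name neither a protein that 4OHT acts on nor a cell line, and leave unsaid if 4OHT was still present during the inhibitor step. No array used here had PD0325901 without 4OHT, so the effect of the inhibitor alone cannot be told apart from an effect of both agents. Nothing in the labels says that replicates were separate cultures, so the p-values measure only how these samples spread, and that spread may be technical.

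MEK is the kinase that phosphorylates and activates ERK, and PD0325901 binds MEK outside its ATP site and blocks that step. Active ERK induces immediate early genes within minutes, and it also induces its own inhibitors, among them the phosphatase DUSP6 and the Sprouty proteins, which form a negative feedback loop. In ESCs, FGF4 acting through ERK moves cells away from the naive state, and blocking MEK together with LIF is known to hold them in it. 4OHT is commonly used to switch on engineered proteins that carry an oestrogen receptor hormone-binding domain.

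Levels are log2 of the scanner's processed signal minus the array's own 75th percentile, so that a level of 0 stands for the 75th percentile, and they are compared only between arrays of the same gene. A gene was called when limma's test, fitted to all 8 arrays, gave an adjusted p under 0.05. Each array had 59305 spots that were not controls, of which 30218 to 37789 were well above background, with at least 36889 on the arrays of replicate 1 and at most 31433 on those of replicate 2. The untreated arrays correlated at 0.9931 across genes and the inhibitor arrays at 0.9934. All 9 ESC markers, among them Pou5f1 and Sox2, were above background on all 4 arrays. Their summed level was 9.72 and 9.76 in untreated cells and 9.78 and 9.59 after the inhibitor. Of 9 fibroblast markers 5 were above background on both arrays of each group, and their summed level was 1.98 and 1.55 untreated against 4.67 and 3.80 after the inhibitor. The gene that moved this sum was Thy1, a surface glycoprotein, at 1.63 and 0.70 untreated and at 4.64 and 3.74 after the inhibitor, while the collagen gene Col1a1 stood at -2.91 and -3.12 and at -2.94 and -2.77. The summed level of 9 primitive endoderm markers was 6.07 and 5.17 untreated and 6.47 and 5.47 after the inhibitor, higher on replicate 1 in both groups. The part of other cell types in the results was not tested.

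After 2 h of PD0325901 part of the 4OHT response was still in place, while a small group of genes had gone past the untreated level. Of 22686 features tested, 3597 were called in the residual comparison (15.9%), 1601 higher (7.06%) and 1996 lower (8.8%) than in untreated cells. Of these, 671 were at least 2-fold higher and 436 at least 2-fold lower. The counts of called genes in the lists below are to be read beside the shares of all features, and no list was tested against them. All 3597 had no overlap between the arrays of the groups, as had 60.3% of all features tested. Arrays without the inhibitor gave 6330 called features at 4OHT 10 h (27.9%) and 4931 at 4OHT 8 h (21.7%), against the same untreated arrays. Centring arrays on their median moved the median change of all features from -0.07 to 0.04 and the split to 1871 higher and 915 lower. The share of higher calls was thus 44.5% with the 75th percentile and 67.2% with the median, so the balance of rises and falls depends on the centring. Replicate numbers paired the arrays, and with the replicate number as a block 6286 features were called, among them 3594 of the 3597. Leaving out any 1 of the 4 arrays gave 1193 to 1654 calls, fewest without replicate 2 of the inhibitor group, and 859 of the 3597 were called each time.

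A feature called in the residual comparison and at 4OHT 10 h in the same direction is said to stay changed, and one called in opposite directions to overshoot. By this rule 1333 features stayed higher (5.88%), 1553 stayed lower (6.85%), 45 overshot below the untreated level (0.198%) and 35 overshot above it (0.154%). A further 631 were called in the residual comparison and not at 4OHT 10 h. The features that stayed changed were 44.8% of the 2977 called higher and 46.3% of the 3353 called lower at 4OHT 10 h. The shares given here come from the fit without the replicate block. With it 2119 features stayed higher and 2806 stayed lower. Among 1008 features that 4OHT had raised at least 2-fold at 10 h, 710 stayed higher (70.4%), 28 overshot (2.78%) and 270 were no longer called (26.8%). Their median change was 1.82 at 10 h and 1.23 after the inhibitor. Among 1107 features that 4OHT had lowered at least 2-fold, 556 stayed lower (50.2%), 15 overshot (1.36%) and 536 were no longer called (48.4%), and their median change was -1.47 at 10 h and -0.845 after the inhibitor. A feature no longer called need not be back: its 95% interval lay within 0.5 log2 of the untreated level for 25 of the 270 and 38 of the 536. Both comparisons use the same untreated arrays, so their changes are not independent. Just inside the threshold of the residual comparison lay Ivns1abp with a change of 0.35, and just outside it Mgrn1 with -0.32.

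**Figure D1:**
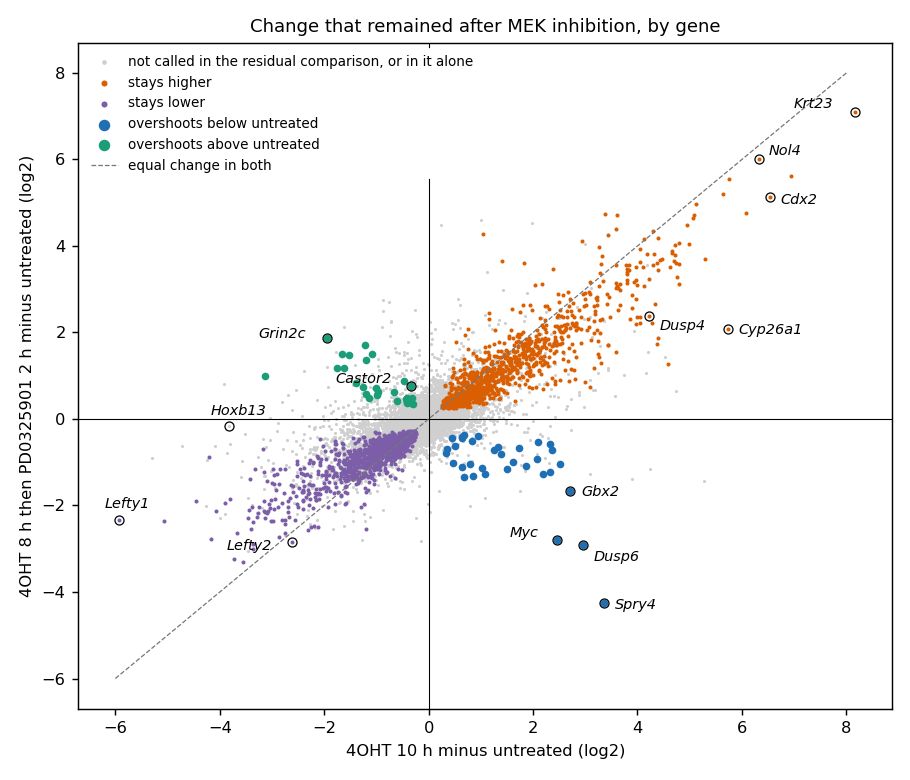
Each point is a gene with a symbol, with its change at 4OHT 10 h on the x axis and its change after 4OHT 8 h then PD0325901 2 h on the y axis, both against the same untreated arrays, in log2. Colours mark the 4 classes. Genes that stayed changed lie at the upper right and lower left, the dashed line marks equal change, and Spry4, Myc, Dusp6 and Gbx2 lie at the lower right, raised by 4OHT and below untreated after the inhibitor.

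The genes that overshot below the untreated level included inhibitors of ERK signalling, transcription factors, secreted factors and receptors, and regulators of mRNA stability. Of the 45 features 34 had a gene symbol, and 24 of the 45 were at least 2-fold below untreated. The rule fixes that they lie below 4OHT 10 h, and all 45 were called so, in a comparison that called 2.87% of all features lower and 3.24% higher (6.12% in all). Of the 45, 41 had been called higher at 4OHT 8 h as well. Their median was -1.04 after the inhibitor and 1.25 at 4OHT 10 h, signs that the rule sets too. With the replicate block 98 features overshot below and 78 above. The count below untreated was 22 without untreated replicate 2, 26 without untreated replicate 1 and 31 and 32 without the inhibitor arrays, and 23 of the 45 residual calls held without each of the 4 arrays.

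The 2 deepest falls of this class were in Spry4 and Dusp6, feedback inhibitors of the pathway. Dusp6, the phosphatase that acts on ERK in the cytoplasm, stood at 3.43 and 3.46 on the untreated arrays and at 6.38 and 6.42 at 4OHT 10 h. After the inhibitor it was at 0.43 and 0.65, below every other array. It fell by 2.90 ± 0.09 (SE) on the log2 scale against untreated cells, 7.47-fold, with an adjusted p of 0.000261, and it was 57.8-fold below 4OHT 10 h. Spry4, which blocks signalling upstream of RAF, was at -0.72 and -0.82 untreated, at 2.65 and 2.53 at 4OHT 10 h, and at -4.85 and -5.22 after the inhibitor, where 1 of the 2 arrays was above background. Its fall of 19.2-fold (adjusted p 0.000318) therefore rests in part on a signal at the level of background. Spry2, its relative, was at 0.59 and 0.55 untreated and at -0.58 and -0.45 after the inhibitor, with 2.41 and 2.44 at 4OHT 10 h. This fall was 2.11-fold (adjusted p 0.00315), with no overlap between groups.

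Not every feedback gene fell. Of 11 ERK phosphatases 3 were called lower and 2 higher than untreated (list median -0.135). Of 14 tested receptor and RAS feedback genes 5 were called lower and 3 higher (median -0.26). The shares of all features were 8.8% lower and 7.06% higher. Of the genes called lower, 2 of the phosphatases and 3 of the receptor and RAS genes had been called higher at 4OHT 10 h. Dusp4, a nuclear ERK phosphatase, was at -1.36 and -1.38 untreated, 2.64 and 3.05 at 4OHT 10 h, and 0.80 and 1.22 after the inhibitor. It was thus 5.21-fold above untreated (adjusted p 0.00299) and 3.57-fold below 4OHT 10 h (adjusted p 0.0098). Dusp5, also nuclear, stayed 3.64-fold higher, at -4.59 and -4.78 untreated, with 1 of those arrays above background, and at -2.86 and -2.79 after the inhibitor (adjusted p 0.00183). Spred1, a membrane-bound inhibitor of RAS, went from 1.33 and 1.29 untreated to 1.99 and 2.05 (1.63-fold, adjusted p 0.0042). Among genes of the same role some thus lay below untreated cells and some above. Spry1 was not called, with a residual change of -0.64 and a 95% interval from -1.12 to -0.16 (adjusted p 0.0812). It was called without replicate 2 of the inhibitor group (adjusted p 0.0463).

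Several transcription factors raised by 4OHT also ended below the untreated level. Myc, which drives growth and proliferation, was at 1.70 and 1.67 untreated, 4.00 and 4.28 at 4OHT 10 h, and -1.28 and -0.96 after the inhibitor. That is a fall of 6.99-fold against untreated cells (adjusted p 0.000812) and of 38.4-fold against 4OHT 10 h. Gbx2, a homeobox factor that supports self-renewal downstream of LIF, was at 1.54 and 1.42 untreated and at -0.16 and -0.18 after the inhibitor, 3.15-fold lower (adjusted p 0.00404). Both had been far above untreated on every 4OHT array, and both lay below it on both inhibitor arrays. Foxd3, a forkhead factor needed for pluripotent cells, changed from 1.99 and 2.03 to 0.71 and 0.65 (2.51-fold, adjusted p 0.00243). Otx2, a factor of the formative epiblast, changed from 3.17 and 3.41 to 1.90 and 2.15 (2.4-fold, adjusted p 0.0104), a call lost without untreated replicate 2 (adjusted p 0.0566) or inhibitor replicate 1 (0.0523).

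Secreted factors and receptors made up another group. Hbegf, a ligand of the EGF receptor, was at 2.13 and 1.94 untreated, at 4.48 and 4.24 at 4OHT 10 h, and at 0.93 and 0.68 after the inhibitor, 2.34-fold below untreated (adjusted p 0.00684). Epha2, a receptor tyrosine kinase that binds ephrins, changed from 4.00 and 4.25 to 2.88 and 3.05 (2.23-fold, adjusted p 0.00348). Vegfc, a growth factor of lymphatic vessels, and Fzd7, a WNT receptor, fell by 0.79 and 0.71 on the log2 scale (adjusted p 0.00631 and 0.00444). In each of these the lower untreated array lay above the higher inhibitor array. The change of Vegfc at 4OHT 10 h was small, 0.32, and close to the threshold (limma adjusted p 0.0496). Bmp4, a ligand of the TGF-beta family, fell from 3.74 and 3.66 to 2.53 and 2.78, and its call (adjusted p 0.0185) was lost without any 1 of the 4 arrays (adjusted p 0.0592 to 0.0826). Of 18 tested ligands of receptor tyrosine kinases 5 were called lower and 1 higher, with a list median of -0.17. The shares of all features were 8.8% and 7.06%. Of the 5 ligands called lower, only Hbegf and Vegfc overshot. Another 2 had been called lower at 4OHT 10 h too, and the last had not been called there.

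Genes that act on mRNA and on kinase signalling followed. Noct, a rhythmically expressed gene of the deadenylase family, was at 4.14 and 4.11 untreated, 6.37 and 6.26 at 4OHT 10 h, and 2.93 and 2.76 after the inhibitor, 2.42-fold below untreated (adjusted p 0.00241). Of 11 tested regulators of mRNA decay 3 were called, all lower, beside 8.8% of all features, and the median of the list was -0.27. Pim1, a survival kinase, changed from 1.25 and 1.09 to 0.03 and 0.04 (2.2-fold, adjusted p 0.00315), and Tiparp, a mono-ADP-ribosyltransferase, from 1.98 and 2.04 to 0.97 and 1.18 (1.91-fold, adjusted p 0.00403). Rusc2 fell 2.5-fold (adjusted p 0.00299). Tiparp was named after its values were seen.

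**Figure D2:**
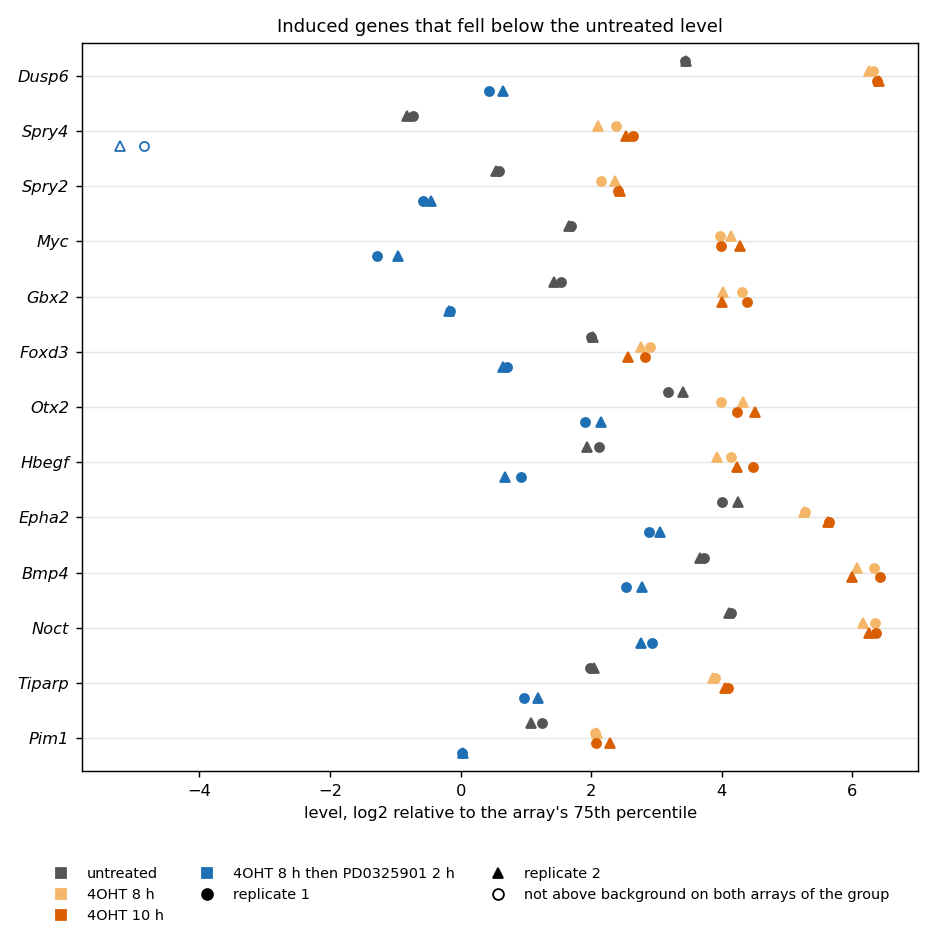
Level of 13 genes on each of the 8 arrays, in log2 relative to the array's 75th percentile, with colours for groups and shapes for replicates. In every row the blue points of the inhibitor group lie left of the grey untreated points and the orange 4OHT points lie right of them.

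Promoters of 4 of these genes are shown to give the sequence at their starts. Of the 34 named genes 26 had a promoter in the RefSeq table (build GRCm38.p6, 250 bases before to 50 after the start of the gene), which was searched on both strands for TGACGTCA (the cAMP response element), CACGTG (an E-box), CCGGAAG (an ETS site), TGACTCA (an AP-1 site) and the CArG box. The E-box was found in 10 of the 26 (38.5%), against 11.3% of the promoters of tested genes and 8.09% of all promoters of the table. The cAMP response element was in 3 (11.5%, against 3.39% and 2.03%), the ETS site in 2 (7.69%, against 17.8% and 9.93%), and the AP-1 site and the CArG box in 0 (against 4.74% and 1.69% of tested genes). These are descriptions of letters in a short window, and no test was run on them. The promoters of Gbx2 and Foxd3 hold an E-box, that of Foxd3 and that of Epha2 a cAMP response element, and that of Dusp6 none of the 5 motifs. They lie at chr1:89931127-89931426 on the minus strand (Gbx2), chr4:99656049-99656348 on the plus strand (Foxd3), chr4:141300971-141301270 on the plus strand (Epha2) and chr10:99262981-99263280 on the plus strand (Dusp6). Capitals mark the motifs.
Gbx2: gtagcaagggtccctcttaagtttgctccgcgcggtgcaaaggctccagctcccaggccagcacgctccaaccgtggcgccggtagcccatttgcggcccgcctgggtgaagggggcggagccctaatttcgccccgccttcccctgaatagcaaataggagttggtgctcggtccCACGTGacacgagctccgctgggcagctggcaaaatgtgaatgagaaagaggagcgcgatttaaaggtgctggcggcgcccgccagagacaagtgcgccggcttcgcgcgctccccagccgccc
Foxd3: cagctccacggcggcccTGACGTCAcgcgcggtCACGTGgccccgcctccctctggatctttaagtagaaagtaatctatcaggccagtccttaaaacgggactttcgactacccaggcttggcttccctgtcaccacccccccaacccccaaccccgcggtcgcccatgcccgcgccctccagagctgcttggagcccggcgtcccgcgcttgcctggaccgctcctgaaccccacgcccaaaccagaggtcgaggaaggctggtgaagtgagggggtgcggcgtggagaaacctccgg
Epha2: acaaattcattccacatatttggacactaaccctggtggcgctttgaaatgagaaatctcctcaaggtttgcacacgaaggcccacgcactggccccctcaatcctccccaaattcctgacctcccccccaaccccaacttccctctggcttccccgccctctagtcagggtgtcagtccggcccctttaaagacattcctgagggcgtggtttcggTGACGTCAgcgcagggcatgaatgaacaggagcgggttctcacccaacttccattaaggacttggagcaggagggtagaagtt
Dusp6: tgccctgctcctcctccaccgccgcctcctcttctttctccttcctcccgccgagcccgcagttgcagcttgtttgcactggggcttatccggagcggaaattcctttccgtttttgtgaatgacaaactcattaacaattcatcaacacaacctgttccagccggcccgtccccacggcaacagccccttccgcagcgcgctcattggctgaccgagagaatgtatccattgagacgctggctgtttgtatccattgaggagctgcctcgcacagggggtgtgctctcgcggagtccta

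Immediate early genes, which ERK induces without new protein synthesis, came out in all positions. Of 20 tested immediate early transcription factors 5 were called higher and 2 lower than untreated, with a median of -0.001. At 4OHT 10 h 13 had been called higher and the median had been 1.305. Among all features 7.06% were called higher and 8.8% lower after the inhibitor, and 13.1% higher at 4OHT 10 h. Egr1, a zinc finger factor, was at 0.83 and 1.42 untreated, 5.16 and 5.56 at 4OHT 10 h, and -0.29 and 0.23 after the inhibitor. Its residual change of -1.16 was not called (adjusted p 0.0513), although the groups do not overlap, and with the replicate block it was (adjusted p 0.0017). Fos, the partner of JUN in AP-1, was at -2.38 and -2.15 untreated and -3.60 and -3.46 after the inhibitor, a change of -1.26 that was not called either (adjusted p 0.0574, and 0.0133 with the block). Without either 4OHT 10 h array the fit called Fos lower (adjusted p 0.0438). Both were far below 4OHT 10 h, 42-fold for Egr1 and 20.4-fold for Fos. Jun, Junb and Ier3, all called higher at 4OHT 10 h, had residual changes of -0.20, 0.27 and -0.13, with intervals from -0.97 to 0.57, from -0.28 to 0.82 and from -0.63 to 0.36. Junb was called higher without untreated replicate 1 (adjusted p 0.0473).

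The later AP-1 members stayed high. Fosl1 was at -3.45 and -3.82 untreated, 0.61 and 0.89 at 4OHT 10 h, and -1.84 and -1.94 after the inhibitor, 3.35-fold above untreated (adjusted p 0.00306) and 6.22-fold below 4OHT 10 h (adjusted p 0.0016). Fosl2 was at -4.31 and -5.16 untreated, with 1 of these arrays above background, and at -0.75 and -1.15 after the inhibitor, 13.8-fold higher (adjusted p 0.00234). Its difference from 4OHT 10 h, -0.93, was not called (adjusted p 0.15, and 0.0907 with the replicate block). Fosl1 had thus lost part of its rise. Arc, a gene of the neuronal activity response, and Nab1, a corepressor of EGR factors, stayed 2.45-fold and 2.85-fold higher (adjusted p 0.00305 and 0.00157). The difference of Nab1 from 4OHT 10 h, -0.46, was called with the replicate block (limma adjusted p 0.0387) and not without it (0.0671). Among 23 immediate early effectors 4 were called higher and 3 lower (median -0.13), against 16 higher and 1 lower at 4OHT 10 h. The shares of all features were 7.06% higher and 8.8% lower, and 13.1% and 14.8% at 4OHT 10 h.

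Of 11 ETS factors linked to ERK signalling 2 were called, both higher, with a list median of 0.16, beside 15.9% called among all features. Etv4 was at 4.29 and 4.10 untreated, 6.12 and 6.09 at 4OHT 10 h and 5.81 and 5.79 after the inhibitor, 3.04-fold above untreated (adjusted p 0.000688). Its difference from 4OHT 10 h was -0.31 (adjusted p 0.11, and 0.0584 with the replicate block), with the inhibitor array lower in both pairs. Its close relative Etv5, at 6.50 and 6.67 untreated and 6.48 and 6.42 after the inhibitor, was called in neither comparison, with a residual interval from -0.34 to 0.07. Etv6, a repressor of the same family, stayed 1.82-fold higher (adjusted p 0.00835). Its difference from 4OHT 10 h, -0.43, was called with the replicate block (limma adjusted p 0.0187) and not without it (0.0942).

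Genes that stayed higher included factors and keratins of the trophoblast and posterior embryo, and in bulk RNA more cells of a type cannot be told apart from more RNA per cell. Of 18 tested trophoblast genes 10 were called higher and 1 lower, beside 7.06% and 8.8% of all features. The list had a median of 1.30, where the median of all features was -0.07. Of the 10, 9 stayed higher, and 1, Ascl2, had been below untreated at 4OHT 10 h. The call of Ascl2 (adjusted p 0.0348) was lost without any 1 of the 4 arrays (adjusted p 0.0624 to 0.139) and without either 4OHT 10 h array (adjusted p 0.0542). Krt23, a keratin, was not above background untreated and was at -0.16 and 0.39 after the inhibitor, at least 30.5-fold higher, by the lowest signal well above background (adjusted p 0.00112). Cdx2, which directs trophectoderm and posterior fates, rose from -4.41 and -3.65 to 0.78 and 1.44 (35.3-fold, adjusted p 0.00286), beside 2.06 and 2.95 at 4OHT 10 h. Hand1, a factor of trophoblast giant cells and heart, was not above background untreated and reached -1.37 and -1.43, at least 10.3-fold higher (adjusted p 0.000357). Krt23 and Hand1 passed the filter on dim probes only through groups given 4OHT. List genes not above background on both arrays of any group could not be tested. The filter can thus push the count of higher calls and the median of the list upward. Krt18 and Peg10, a keratin and an imprinted placental gene, stayed 3.33-fold and 2.86-fold higher (adjusted p 0.00434 and 0.00726). The differences of Krt23, Cdx2 and Krt18 from 4OHT 10 h, -1.07, -1.39 and -0.57, were not called without the replicate block. With it they were (limma adjusted p 0.0275, 0.00436 and 0.0396). Of 5 defining trophoblast markers (Cdx2, Elf5, Tfap2c, Hand1 and Ascl2) 3 were above background on both untreated arrays and 4 on both inhibitor arrays. Their summed level was 3.12 and 3.19 untreated and 4.26 and 4.27 after the inhibitor. Ascl2, at 1.55 and 1.99 untreated and 2.86 and 3.38 after the inhibitor, weighed more in this sum than Cdx2 or Hand1. Tfap2c had a residual change of 0.49 that was not called. At 4OHT 10 h Ascl2 and Tfap2c had been called lower (-1.20 and -1.03), so the sum is not one of genes that stayed higher. The part of a change in cell types was not tested.

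Some primitive streak genes stayed higher too. Of 12 tested primitive streak and posterior genes 3 were called higher and 1 lower (median 0.55), beside 7.06% and 8.8% of all features. Cdx2 is on both lists. The lower gene was Gsc, with a change of -1.895 after the inhibitor and -4.454 at 4OHT 10 h. Evx1, Mesp1 and Mesp2, called higher at 4OHT 10 h, were not called residually (changes of 0.68, -0.80 and 0.10). T, the brachyury factor of mesoderm, was at -4.90 and -5.03 untreated, with 1 array above background, and at -1.98 and -2.22 after the inhibitor (7.27-fold, adjusted p 0.00299). Eomes, a factor of both trophoblast and mesendoderm, rose from -1.85 on both untreated arrays to -0.71 and -0.92 (2.04-fold, adjusted p 0.00705), and it was 1.95-fold below 4OHT 10 h (adjusted p 0.014). Sp5, a direct WNT target, was at -1.44 and -1.65 untreated, 2.39 and 2.50 at 4OHT 10 h and 0.90 and 0.73 after the inhibitor, 5.12-fold above untreated (adjusted p 0.000463). T, Eomes and Sp5 all lay between the untreated and the 4OHT 10 h level.

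Signalling and matrix genes stayed high as well. Fgfr4, an FGF receptor, was at -1.57 and -1.82 untreated, 3.21 and 2.97 at 4OHT 10 h and 2.13 and 1.64 after the inhibitor, 12-fold above untreated (adjusted p 0.00116). Of 13 listed genes of matrix proteases and the plasminogen system 8 were tested. Of these 8, 6 were called, all higher, beside 7.06% of all features called higher. The median of the tested genes was 1.102, which the filter on dim probes can push upward, since Mmp9 passed it only through groups given 4OHT. The urokinase receptor Plaur was at 2.29 and 1.99 untreated, 5.95 and 6.04 at 4OHT 10 h and 4.39 and 4.50 after the inhibitor, 4.95-fold above untreated (adjusted p 0.000665). Mmp9, a gelatinase, was not above background untreated and was at -3.06 and -2.13 after the inhibitor, at least 4.65-fold higher (adjusted p 0.00653). Its difference from 4OHT 10 h, -1.14, was called with the replicate block (limma adjusted p 0.0131) and not without it (0.209). Plat, tissue plasminogen activator, was called in the residual comparison (2.2-fold, adjusted p 0.00708) and not at 4OHT 10 h, where its change was -0.33. Fhl2, a cofactor with LIM domains, stayed 16.7-fold higher, from -1.63 and -1.69 to 2.34 and 2.47 (adjusted p 0.000261).

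Genes of retinoic acid metabolism stayed changed in both directions. Of 13 tested genes 3 stayed higher and 3 stayed lower (median -0.12), beside 5.88% and 6.85% of all features. Aldh1a3, which makes retinoic acid, was at -4.30 and -5.31 untreated, with 1 array above background, and at -0.04 on both inhibitor arrays (27.2-fold, adjusted p 0.00157). Cyp26a1, which degrades it, was at -4.77 and -4.79 untreated, again with 1 array above background, 0.86 and 1.04 at 4OHT 10 h, and -2.79 and -2.62 after the inhibitor. It was 4.23-fold above untreated (adjusted p 0.000497) and 12.6-fold below 4OHT 10 h (adjusted p 0.00028). Dhrs3, which turns retinal back to retinol, was at 2.12 and 2.09 untreated, -1.19 and -1.25 at 4OHT 10 h and 1.02 and 0.88 after the inhibitor, 2.22-fold below untreated (adjusted p 0.0052). Much of the change of Cyp26a1 and Dhrs3 had thus been lost.

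For other genes the difference from 4OHT 10 h was not called, with or without the replicate block. Loxl4, a lysyl oxidase, was not above background untreated and stood at -0.32 and -0.38 at 4OHT 10 h and -0.36 and -0.64 after the inhibitor, at least 19.9-fold above untreated (adjusted p 0.000215), with a difference from 4OHT 10 h of -0.15 ± 0.12. Npy, neuropeptide Y, rose from -3.99 and -3.71 to 0.86 and 0.74 (25.1-fold, adjusted p 0.000322), with a difference from 4OHT 10 h of -0.41 ± 0.18. Nol4 and Slc35f1, both not above background untreated, were at least 15.8-fold and 37.9-fold higher (adjusted p 0.000955 and 0.00386), with differences from 4OHT 10 h of -0.32 ± 0.35 and -0.22 ± 0.54. With the block the adjusted p of these differences was 0.469 for Loxl4, 0.2 for Npy, 0.505 for Nol4 and 0.241 for Slc35f1. For each of these 4 genes the inhibitor array lay below the 4OHT 10 h array of the same number in both pairs. Of the 1333 features that stayed higher 1134 were not called against 4OHT 10 h, 174 were called toward the untreated level and 25 further away from it. With the block 323 were called toward it and 41 further away.

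Part of the genes of sterol synthesis and ribosome production stayed higher. Of 25 sterol biosynthesis genes 11 were called higher and 1 lower (median 0.36), and all 12 had been called the same way at 4OHT 10 h, where 17 were higher and 2 lower. The sterol enzymes Msmo1 and Cyp51 rose 1.93-fold and 1.59-fold (adjusted p 0.00445 and 0.00593). Of 24 ribosome biogenesis genes 6 were called, all higher (median 0.195), against 13 higher at 4OHT 10 h. For all features the shares called higher were 7.06% and 13.1%. Of 18 tested formative and primed epiblast genes 6 were called higher and 2 lower (median 0.59). Pou3f1, a POU factor of the primed epiblast, was at 0.46 and 0.78 untreated, 3.91 and 4.21 at 4OHT 10 h and 2.19 and 2.48 after the inhibitor, 3.29-fold above untreated (adjusted p 0.0053). Fgf5, the usual marker of that state, was at -5.22 and -4.04 untreated and -4.10 and -3.25 after the inhibitor, and it was not called (adjusted p 0.234, and 0.0236 with the replicate block).

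**Figure D3:**
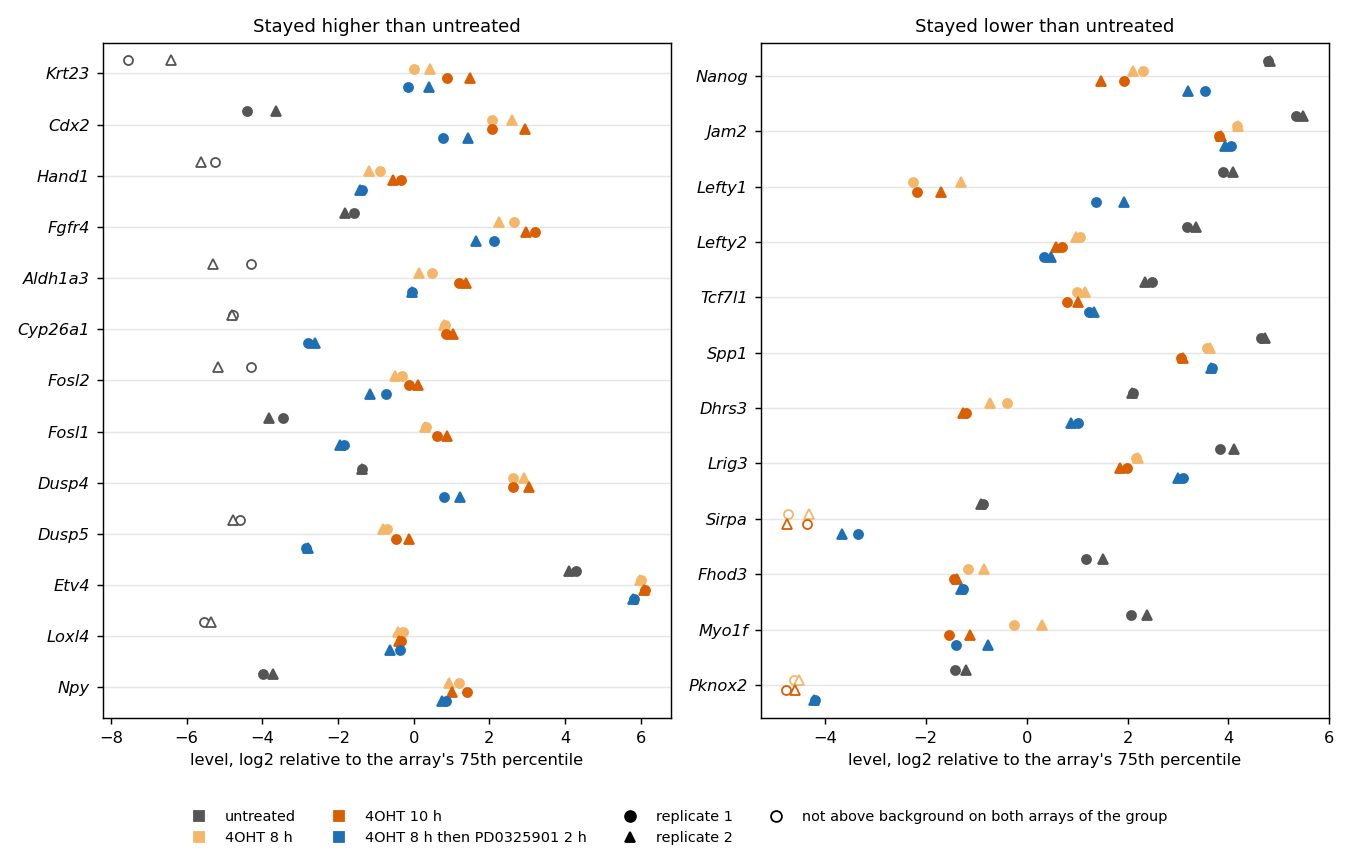
Level of 13 genes that stayed higher (left) and 12 that stayed lower (right) on each of the 8 arrays, in log2 relative to the array's 75th percentile. Open points mark groups in which the gene was not above background on both arrays. On the left the blue inhibitor points lie right of the grey untreated points in every row, close to the orange 4OHT points for Loxl4 and Npy and far from them for Cyp26a1, and on the right the order is turned round.

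Naive pluripotency genes came out in different positions, some still below untreated and some near it. Of 24 genes 6 were called lower than untreated and 1 higher after the inhibitor (median -0.61), against 12 lower and 5 higher at 4OHT 10 h (median -0.81). For all features the shares were 8.8% lower and 7.06% higher, and 14.8% and 13.1% at 4OHT 10 h. Of the 6 genes called lower after the inhibitor, 4 had been called lower at 4OHT 10 h too. Gbx2 had been called higher there, and 1 had not been called. Nanog was at 4.78 and 4.83 untreated, 1.93 and 1.48 at 4OHT 10 h and 3.54 and 3.19 after the inhibitor. It was 2.71-fold below untreated (adjusted p 0.00873, and 0.0505 without untreated replicate 2) and 3.16-fold above 4OHT 10 h (adjusted p 0.01). Jam2, a junction protein of naive cells, was at 5.34 and 5.49 untreated, 3.81 and 3.85 at 4OHT 10 h and 4.05 and 3.93 after the inhibitor (2.69-fold below untreated, adjusted p 0.00101), and its difference from 4OHT 10 h was not called.

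Other naive factors were no longer called. Klf2 was at 5.96 and 6.07 untreated and 6.40 and 6.18 after the inhibitor, with an interval of the residual change from -0.30 to 0.85. Klf4, at 5.40 and 5.26 against 5.28 and 4.75, had an interval from -1.12 to 0.48. Its difference from 4OHT 10 h, 1.47, was called with the replicate block (limma adjusted p 0.00966) and not without it (0.0614). Esrrb, Tbx3 and Prdm14 had residual changes of -0.63, -0.59 and -0.95 (adjusted p 0.116, 0.155 and 0.082), which the replicate block called lower (adjusted p 0.0379, 0.0188 and 0.00913). Their changes at 4OHT 10 h were -0.84, -1.98 and -3.08. The difference from 4OHT 10 h was called for Tbx3 and Prdm14 (1.39 and 2.13, limma adjusted p 0.0325 and 0.0167). That of Esrrb, 0.21, was not called (limma adjusted p 0.657, and 0.415 with the block), so Esrrb was not shown to have moved back. Spic, an ETS-family factor with a change of -4.73 at 4OHT 10 h, was at 1.66 and 1.48 untreated and 1.17 and 0.71 after the inhibitor. It was not called without the block (adjusted p 0.184, and 0.0215 with it). Pou5f1, the core factor OCT4, had a residual change of -0.01 with an interval from -0.26 to 0.24.

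Among genes of the Nodal pathway, a TGF-beta branch that is active in ESCs, the inhibitors Lefty1 and Lefty2 stayed lower. Of 19 tested genes 9 were called after the inhibitor, all lower (median -0.51), against 9 lower and 2 higher at 4OHT 10 h. For all features the shares called lower were 8.8% and 14.8%. Of the 9 genes called after the inhibitor, 6 had been called lower at 4OHT 10 h too, and 3 had not been called there. Lefty2, a secreted inhibitor of Nodal, was at 3.17 and 3.36 untreated, 0.70 and 0.59 at 4OHT 10 h and 0.35 and 0.48 after the inhibitor, 7.22-fold below untreated (adjusted p 0.000318). Lefty1, its neighbour in function, was at 3.90 and 4.09 untreated, -2.18 and -1.70 at 4OHT 10 h and 1.38 and 1.93 after the inhibitor. It was 12.1-fold above 4OHT 10 h (adjusted p 0.0069) and 5.08-fold below untreated (adjusted p 0.0138). The latter call was lost without untreated replicate 1, untreated replicate 2 or inhibitor replicate 1 (adjusted p 0.0609, 0.0728 and 0.0644). Nodal itself was at 4.27 and 4.30 untreated, 2.87 and 3.02 at 4OHT 10 h and 4.14 and 4.04 after the inhibitor, and its residual change of -0.19 was not called (interval from -0.48 to 0.09). The ligand was thus within 0.5 log2 of its untreated level while both Lefty genes were below theirs.

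Further genes stayed lower too. Tcf7l1, a repressor of WNT targets, was at 2.49 and 2.35 untreated and 1.24 and 1.33 after the inhibitor (2.2-fold lower, adjusted p 0.00418), and Notum, a secreted WNT inhibitor, was 1.81-fold lower (adjusted p 0.00298). Spp1, osteopontin, went from 4.64 and 4.73 to 3.67 and 3.66 (2.03-fold, adjusted p 0.00158), with 3.05 and 3.11 at 4OHT 10 h. Lrig3, a membrane protein of the family that restrains receptor tyrosine kinases, fell by 0.92 ± 0.11 (SE) on the log2 scale (1.89-fold, adjusted p 0.0076). Sirpa, a receptor for CD47 named after its values were seen, was at -0.87 and -0.90 untreated and -3.35 and -3.67 after the inhibitor (6.17-fold, adjusted p 0.00241). Fhod3, a formin, and Myo1f, an unconventional myosin, were 6.2-fold and 9.93-fold lower (adjusted p 0.000928 and 0.00316), and the homeobox gene Pknox2 was 7.46-fold lower (adjusted p 0.000318). For these last 3 genes the difference from 4OHT 10 h was 0.12, 0.24 and 0.47, and none was called. With the block that of Pknox2 was (adjusted p 0.0281). Of the 1553 features that stayed lower 1391 were not called against 4OHT 10 h, 157 were called toward the untreated level and 5 further away from it. With the block these were 262 and 20.

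Some genes lay near the untreated level again. The residual interval lay within 0.5 log2 of untreated for Fjx1, Sox4, Slc17a9, Tor3a and Rarg among the induced genes. Fjx1, a secreted regulator of planar polarity signalling, was at 0.18 and 0.25 untreated, 2.85 and 3.03 at 4OHT 10 h and -0.10 and 0.01 after the inhibitor. Its residual interval, from -0.49 to -0.03, left out 0, and both inhibitor arrays lay below both untreated arrays. Sox4, a transcription factor of progenitor cells, was at 1.16 and 1.34, then 2.56 and 2.90, then 1.16 and 1.13. Rarg, a retinoic acid receptor, was at 5.20 and 5.34, then 6.47 and 6.52, then 5.40 and 5.53, with a residual interval from -0.03 to 0.41. All of them had no overlap between the 4OHT 10 h arrays and the other two groups.

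Among genes that 4OHT had lowered, Hoxb13, a posterior homeobox gene, was at -1.81 and -1.57 untreated, not above background at 4OHT 10 h, and at -1.88 and -1.82 after the inhibitor. Its residual change was -0.16 with an interval from -0.42 to 0.10. Leng9 was at -1.50 and -1.33 untreated and -1.54 and -1.48 after the inhibitor, and Gadd45b, a stress-response gene linked to DNA demethylation, at 2.53 and 2.40 and at 2.44 and 2.17. Fgf4, the ligand that activates ERK in ESCs, was at 6.40 and 6.67 untreated, 4.99 and 4.95 at 4OHT 10 h and 6.32 and 6.26 after the inhibitor, with a residual interval from -0.50 to 0.01. For these 4 genes both inhibitor arrays lay far above both 4OHT 10 h arrays and near the untreated ones.

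The genes that overshot above the untreated level, most of them by less than 2-fold, had been lowered by 4OHT. The 35 features had a median change of 0.73 after the inhibitor and -0.67 at 4OHT 10 h, 10 of them were at least 2-fold above untreated, 29 had a gene symbol and 32 were also called lower at 4OHT 8 h. Leaving out 1 of the 4 arrays left 6 to 19 features that overshot above, 6 without either untreated array. Grin2c, an NMDA receptor subunit, was at -1.29 and -1.77 untreated, -3.23 and -3.71 at 4OHT 10 h and 0.42 and 0.29 after the inhibitor, 3.68-fold above untreated (adjusted p 0.0063) and 14.1-fold above 4OHT 10 h. Castor2, a sensor of the mTORC1 pathway, rose from 0.00 and 0.14 to 0.74 and 0.91 (1.69-fold, adjusted p 0.0077). Its change at 4OHT 10 h was small, -0.34, and close to the threshold (limma adjusted p 0.0449). Tnfrsf13c, the receptor for BAFF, was at -2.05 and -2.39 untreated and -0.50 and -0.94 after the inhibitor (2.82-fold, adjusted p 0.00975, and 0.0511 without untreated replicate 2). Alx1, a homeobox factor of craniofacial mesenchyme, rose 2.27-fold (adjusted p 0.0112), a call lost without untreated replicate 1 (0.0553) or inhibitor replicate 2 (0.0541).

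A last set of 631 features, 233 higher and 398 lower, was called in the residual comparison and not at 4OHT 10 h. Of these, 153 were called against 4OHT 10 h, and 238 with the replicate block, so most were not shown to differ from it. Id3, one of the 153, an inhibitor of basic helix-loop-helix factors and a BMP target, was at 1.29 and 1.59 untreated, 1.28 and 1.33 at 4OHT 10 h and -1.40 and -1.37 after the inhibitor, 7.11-fold below untreated (adjusted p 0.000496) and 6.46-fold below 4OHT 10 h (adjusted p 0.0013). Smad7, the inhibitory SMAD, was at 2.43 and 2.29, then 2.51 and 2.27, then 0.32 and 0.08, 4.47-fold below untreated (adjusted p 0.0018). For both, untreated and 4OHT arrays lay together and the inhibitor arrays far below them. Sox2, a core pluripotency factor, was at 3.93 and 4.11 untreated, 4.29 and 4.23 at 4OHT 10 h and 3.45 and 3.40 after the inhibitor (1.51-fold lower, adjusted p 0.0111, and 0.0615 without inhibitor replicate 2). Of 15 tested BMP and SMAD targets 4 were called higher and 4 lower (median -0.21), beside 7.06% and 8.8% of all features. Among the higher was Gata3, which is not of this set, since it was called at 4OHT 10 h too (3.01-fold, limma adjusted p 0.0203). After the inhibitor it stayed 5.86-fold higher (limma adjusted p 0.00899), a call lost without inhibitor replicate 2. Its difference from 4OHT 10 h, 0.96, was called with the replicate block (limma adjusted p 0.0496) and not without it (0.187).

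Higher in this last set was Pdgfa, a platelet-derived growth factor, at 5.09 and 5.12 untreated, 5.10 and 4.98 at 4OHT 10 h and 5.85 and 5.78 after the inhibitor (1.63-fold, adjusted p 0.00649). Ccn4, a matricellular WNT target, and Lfng, a glycosyltransferase that modifies Notch, were named after their values were seen. Ccn4 was at -2.52 and -2.55 untreated, -2.21 and -1.93 at 4OHT 10 h and -0.41 and -0.49 after the inhibitor (4.25-fold, adjusted p 0.00157). Lfng was at -3.54 and -3.37, then -3.15 and -2.76, then -1.34 and -1.16 (4.61-fold, adjusted p 0.00327). In all of these the inhibitor arrays were above every other array.

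**Figure D4:**
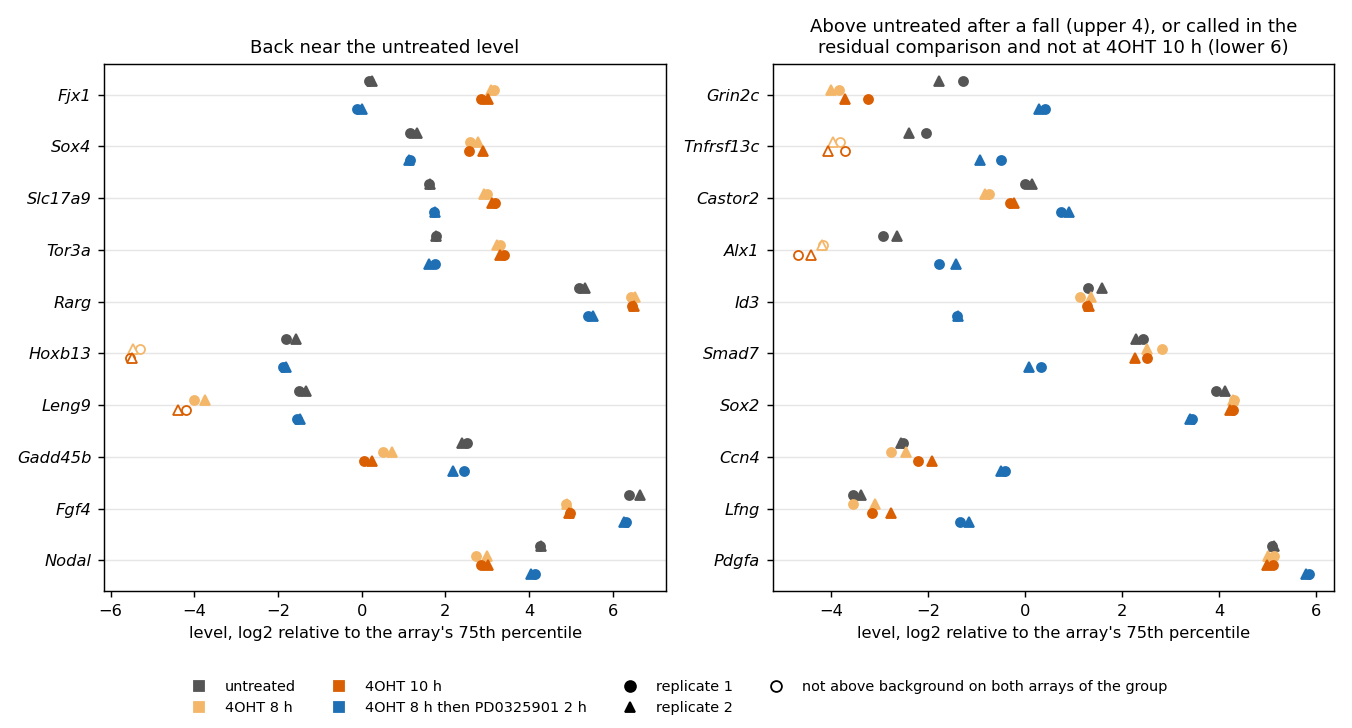
Level of 10 genes whose residual interval lay within 0.5 log2 of untreated (left), of 4 genes that overshot above untreated and of 6 genes called in the residual comparison and not at 4OHT 10 h (right), on each of the 8 arrays. Colours stand for groups, shapes for replicates. On the left the blue inhibitor points lie at the grey untreated points and away from the orange 4OHT points, and on the right, for Id3 and Smad7, the blue points stand alone.

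**Figure D5:**
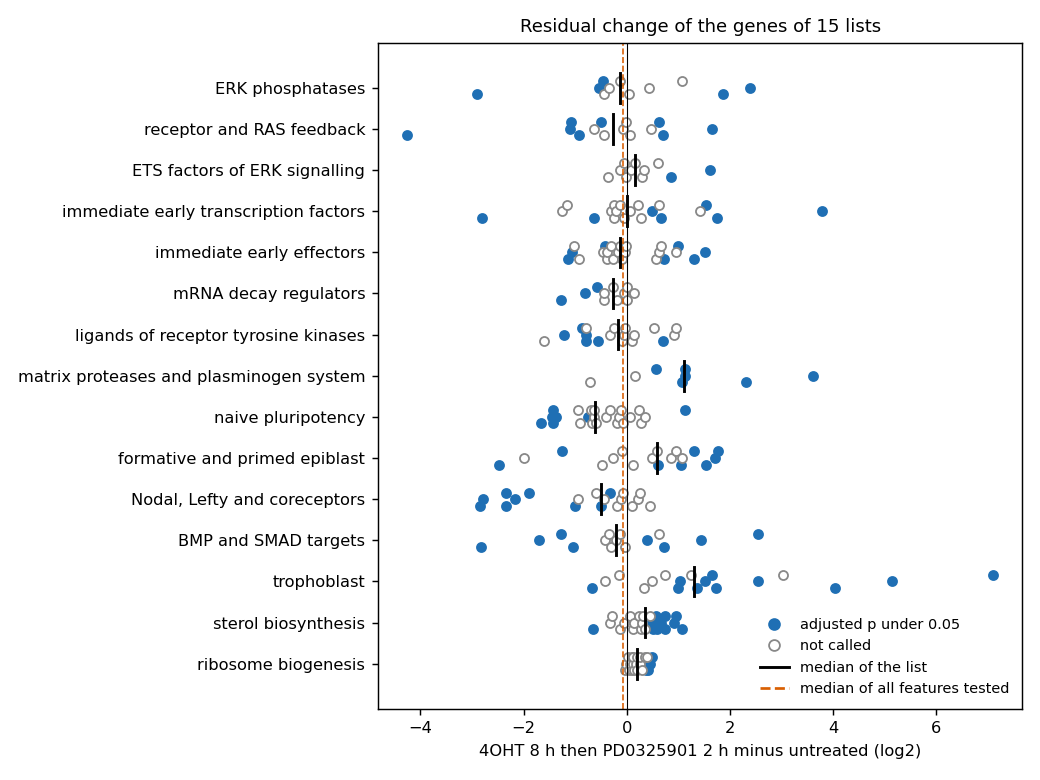
Residual change in log2 of each tested gene of 15 lists, filled where the gene was called, with a bar at the list's median and a dashed line at the median of all features, -0.07. The trophoblast list and the matrix protease list have medians of 1.304 and 1.102, which the filter on dim probes can push upward. The feedback and immediate early lists hold called genes on both sides of 0.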

How the data were processed

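RNA of 8 samples, 2 in each of 4 groups, was hybridised to Agilent mouse arrays (design 028005, built on mm9 per the file headers), which all carried 1 slide number. The deposited scanner files hold intensities from Agilent Feature Extraction 11.0.1.1 per the file headers: the processed signal, background-subtracted but not scaled between arrays. The deposited value table holds the same intensities, differing by at most 0.497%. Marks of 0 or 1 per spot for background, saturation and outliers came from the deposited scanner files too. No spot was saturated, and the 75th percentile of the signal was 309.0 to 392.6. The number of arrays limits the precision.

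Control spots and outlier spots were left out, log2 of the processed signal was centred on each array's 75th percentile, and spots of a probe were averaged. Of 55681 probes 27656 had 1 gene symbol through RefSeq names and 28025 had none. Probes well above background on both arrays of a group were kept (30329), and the kept probe with the highest mean stood for its gene, which gave 22687 features, 14493 with a symbol. limma 3.58.1 in R 4.3.3 fitted the 4 groups to all 8 arrays, with Benjamini-Hochberg adjustment over all features. For a gene not above background in a group, "at least" folds use the lowest signal well above background.

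Deviations of same-numbered arrays from their group means correlated at 0.287 to 0.356 in all 6 pairs of groups, so replicate numbers were taken as pairing the arrays, and a fit with the replicate block is given where it changed a call. Genes were named by rule: the largest changes, overshoots and returns, key members of 32 gene lists, and a fixed set of pathway and pluripotency genes. The members and lists were chosen with earlier results of these data known. On simulated data for the residual comparison, with 200 of 22660 genes changed, the fit recovered 65% of changes of 1 log2 and 86% of 2 log2, with 8 false calls. The simulated noise was independent between arrays, without replicate pairing, and far fewer genes were changed than were called in the data. These figures therefore need not hold for the data. Alternatives covered normalization, background, filters, probe choice, the variance prior, the arrays fitted and the value table.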

Additional observations from a re-analysis of the deposited data

How the results depend on the processing

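Counts are given for higher and lower residual calls, for features that stayed higher and lower, and for overshoots below and above untreated, which were 1601, 1996, 1333, 1553, 45 and 35. Quantile normalization, normexp, a filter on all 8 arrays, the mean of a gene's probes, the deposited table and an intensity trend with a robust prior left all 6 counts within 1.5 times. With median centring lower calls were 915, features that stayed lower 702 and overshoots above 21. Without a filter on dim probes the counts were 610, 459, 535, 391, 22 and 5, and with only the compared arrays in each fit 768, 645, 618, 507, 24 and 12. With the replicate block they were 2603, 3683, 2119, 2806, 98 and 78. The block called the residual changes of Egr1, Fos, Fgf5, Esrrb, Tbx3, Prdm14 and Spic and changed no other residual call of the 104 genes named. Calls of at least 2-fold, in both comparisons for the last 4 counts, were 671, 436, 551, 349, 18 and 10. Leaving out 1 of the 8 arrays gave 643 to 1244, 550 to 1405, 561 to 988, 463 to 1078, 22 to 35 and 6 to 22. Requiring the same call at 4OHT 8 h, an alternative chosen after the data were seen, gave 1124, 1227, 41 and 32 for the last 4 counts. The causes of these shifts were not tested. No called change of a named gene reversed its sign. Uncalled changes near 0 did for Pou5f1, Junb, Ier3, Sox4, Tor3a and Leng9, which were not called on either side of 0 in those settings. Share of higher calls was 52.2% with quantile normalization, 57.1% with no filter and 54.4% with only the compared arrays, against 44.5%. With 2 arrays a group, small changes near background cannot be called reliably.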

Other observations

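Of 17 polycomb and DNA methylation genes 4 were called higher and 3 lower in the residual comparison (median -0.015), beside 15.9% of all features called. At 4OHT 10 h 8 of the 17 were called higher, beside 13.1% of all features. The 3 called lower residually were Tet1, Tet2 and Tet3, enzymes that oxidise methylated cytosine, with changes of -0.67, -0.87 and -0.38. None of them was called at 4OHT 10 h, where the changes were -0.33, -0.35 and -0.23. Their differences from 4OHT 10 h were not called (limma adjusted p 0.193, 0.159 and 0.396). With the replicate block that of Tet2 was (limma adjusted p 0.0299). Centring arrays on their median lost all 3 residual calls (limma adjusted p 0.0641, 0.0641 and 0.173). With the mean of a gene's kept probes the change of Tet3 was -0.05 (limma adjusted p 0.86). The calls of Tet1 and Tet2 were lost without untreated replicate 1, untreated replicate 2 or inhibitor replicate 2 (limma adjusted p up to 0.0888 and 0.109), and that of Tet3 without any 1 of the 8 arrays (up to 0.124). Phf19, a polycomb subunit that binds methylated histone H3, was at 0.00 and -0.07 untreated and 1.00 and 0.86 after the inhibitor (1.95-fold higher, limma adjusted p 0.00417), with a difference from 4OHT 10 h of 0.05. Jarid2, which recruits the same complex, was at 3.50 and 3.46 untreated, 4.60 and 4.59 at 4OHT 10 h and 4.17 and 4.09 after the inhibitor (1.57-fold above untreated, adjusted p 0.00516). The groups did not overlap for either gene.

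Of 19 tested SRF and YAP targets 5 were called lower and 3 higher (median -0.25), beside 8.8% and 7.06% of all features. Cnn2, an actin-binding calponin, was 2.12-fold lower (limma adjusted p 0.00231), with a difference from 4OHT 10 h of -0.04. Of 18 p53 target and apoptosis genes 3 were called, each higher (median 0.006), a share near that of all features. Perp, a membrane protein of desmosomes and a p53 target, was at 2.22 and 2.32 untreated and 3.85 and 4.29 after the inhibitor (3.48-fold higher, adjusted p 0.00655).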
